A study of Mus musculus with 4 samples.

Results

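Gene-end tiles are 500-bp windows of the mouse genome that lie at the ends of protein-coding genes and are among the most accessible windows in these T cells. Chromosomes 1 to 19 were divided into 500-bp tiles, the tiles were ranked by the number of ATAC fragments with an end in them, summed over all labelled cells of both libraries, and, of the top 50000, those overlapping the 1 kb on either side of either end of a protein-coding gene were kept. The rule kept 24228 of the 50000 top tiles (48.5%), out of 3711399 tiles with at least 1 fragment. The members were thus chosen by their summed fragments, and that number is given below as a description only. The summed rank favors what the labels with many cells share.

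T cells had been sorted from AKP tumors and from the adjacent cecum of mice 4 weeks after transplantation, and their nuclei were used for 10x multiome (ATAC and nuclear RNA). AKP is the label of an engineered organoid line of intestinal epithelium that lacks Apc and Trp53, which was injected into the wall of the cecum; the strain, age and number of mice behind the multiome, and any pooling, are not given in the sources used here. Both groups come from mice that carry a tumor, so the cecum is adjacent tissue and not the tissue of a tumor-free mouse. There was 1 ATAC library per tissue, with 7155 labelled cells in cecum and 8466 in tumor, carrying 17 T cell labels that the authors made from the RNA of the same cells; the RNA libraries were not analysed here.

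With 1 library per tissue there was no replicate error and no test: intervals below are 95% and cover counting error only, and tissue and library cannot be told apart. The files held 66466111 fragments for the cecum and 96747563 for the tumor, of which 43274454 and 61129089 belonged to labelled cells on chromosomes 1 to 19. Levels are FPM, fragments with an end in the tile per 1000000 fragments of the same label in the same library. Comparisons between labels used the 16 labels with at least 50 cells in both libraries. They left out PD1+ CD4 (14 cells in the cecum, 616 in the tumor), whose tumor values are given beside some of the results they touch. A label with 0 fragments in a tile could still hold up to 3 fragments, which is 0.244 FPM for the deepest label (Innate-like T#1 in the tumor) and 7.14 FPM for the shallowest (newly activated CD4 in the cecum). The 2 libraries shared 84 barcodes among their labelled cells.

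The transposase used in ATAC-seq cuts DNA that is free of nucleosomes. Active promoters, at the start of a gene, hold a nucleosome-depleted region where RNA polymerase II and general factors assemble, and in mammals most of them lie in CpG islands, stretches rich in CpG dinucleotides that are open in many cell types. Promoters of genes restricted to a cell type are more often poor in CpG, and distal enhancers, away from gene starts, are the elements known to differ most between cell types. In T cells, T-box factors (T-bet, Eomes), RUNX, ETS and AP-1 family members bind such elements.

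The promoters of 8 genes are printed to show sequence at the tiles the results turn on: 2 genes whose tiles were open in every label (Dnpep, Vkorc1l1), 2 whose tiles were specific to 1 label (Itgb8, Cebpa), 3 label-enriched (Sh2d1b1, Angptl2, Plek) and 1 higher in the tumor (Zc3h12c). The sequences are RefSeq's for GRCm38.p6, 250 bases before to 50 after the start, read 5′ to 3′ on the strand of the gene. Capitals mark exact matches, on either strand, to 11 short motifs named further below.
Dnpep: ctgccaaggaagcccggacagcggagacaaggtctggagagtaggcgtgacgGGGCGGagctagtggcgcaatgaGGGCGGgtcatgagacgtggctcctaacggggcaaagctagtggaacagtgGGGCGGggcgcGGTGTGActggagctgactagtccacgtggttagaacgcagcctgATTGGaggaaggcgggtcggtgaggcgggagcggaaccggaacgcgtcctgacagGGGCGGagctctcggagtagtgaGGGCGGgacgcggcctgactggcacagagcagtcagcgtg
Vkorc1l1: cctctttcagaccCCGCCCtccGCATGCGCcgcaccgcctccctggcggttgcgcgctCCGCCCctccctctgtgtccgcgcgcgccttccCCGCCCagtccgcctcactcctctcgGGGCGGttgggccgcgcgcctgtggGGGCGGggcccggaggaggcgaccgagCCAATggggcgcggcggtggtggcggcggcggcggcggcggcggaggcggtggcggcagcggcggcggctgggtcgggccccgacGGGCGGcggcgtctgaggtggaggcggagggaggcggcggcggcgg
Itgb8: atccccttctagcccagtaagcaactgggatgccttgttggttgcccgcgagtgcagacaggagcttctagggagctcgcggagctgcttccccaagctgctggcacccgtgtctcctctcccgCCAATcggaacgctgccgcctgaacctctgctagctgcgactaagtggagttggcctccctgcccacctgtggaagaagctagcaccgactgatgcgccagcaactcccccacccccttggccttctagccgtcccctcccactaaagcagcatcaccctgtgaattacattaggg
Cebpa: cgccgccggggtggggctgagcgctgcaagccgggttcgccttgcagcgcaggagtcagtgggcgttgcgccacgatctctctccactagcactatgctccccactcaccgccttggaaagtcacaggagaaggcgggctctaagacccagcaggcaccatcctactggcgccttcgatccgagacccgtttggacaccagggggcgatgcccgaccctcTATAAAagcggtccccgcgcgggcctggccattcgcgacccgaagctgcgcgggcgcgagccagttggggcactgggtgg
Sh2d1b1: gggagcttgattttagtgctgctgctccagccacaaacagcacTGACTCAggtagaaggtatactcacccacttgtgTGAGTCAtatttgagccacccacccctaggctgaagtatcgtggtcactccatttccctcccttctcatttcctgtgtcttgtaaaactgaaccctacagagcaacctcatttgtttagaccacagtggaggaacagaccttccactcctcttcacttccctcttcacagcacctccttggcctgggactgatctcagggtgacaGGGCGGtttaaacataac
Angptl2: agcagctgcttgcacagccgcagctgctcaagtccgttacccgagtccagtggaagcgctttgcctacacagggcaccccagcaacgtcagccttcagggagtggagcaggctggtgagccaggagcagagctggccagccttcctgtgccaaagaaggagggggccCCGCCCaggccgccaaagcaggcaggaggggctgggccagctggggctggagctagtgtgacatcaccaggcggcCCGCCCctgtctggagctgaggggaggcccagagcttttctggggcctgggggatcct
Plek: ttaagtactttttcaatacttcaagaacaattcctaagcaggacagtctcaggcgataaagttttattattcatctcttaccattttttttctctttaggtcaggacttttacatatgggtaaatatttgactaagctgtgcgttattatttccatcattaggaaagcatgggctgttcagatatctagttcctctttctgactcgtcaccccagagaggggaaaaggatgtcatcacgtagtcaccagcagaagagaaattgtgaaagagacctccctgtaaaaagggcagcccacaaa
Zc3h12c: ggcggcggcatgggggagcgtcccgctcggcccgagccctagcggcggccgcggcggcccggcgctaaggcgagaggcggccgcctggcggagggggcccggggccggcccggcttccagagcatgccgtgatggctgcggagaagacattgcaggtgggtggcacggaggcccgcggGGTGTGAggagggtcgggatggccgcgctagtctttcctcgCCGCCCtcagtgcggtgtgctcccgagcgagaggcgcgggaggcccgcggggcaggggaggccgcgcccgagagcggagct
They lie at chr1:75317588-75317887 (Dnpep, minus strand), chr5:129941859-129942158 (Vkorc1l1, plus), chr12:119238227-119238526 (Itgb8, minus), chr7:35119043-35119342 (Cebpa, plus), chr1:170277068-170277367 (Sh2d1b1, plus), chr2:33215711-33216010 (Angptl2, plus), chr11:17008669-17008968 (Plek, minus) and chr9:52168357-52168656 (Zc3h12c, minus). The windows do not all lie within their tiles: the tile holds 142 of the 300 bases of Vkorc1l1 and 156 of Zc3h12c, and from 274 (Itgb8) to 300 of the others. Both matches of Zc3h12c and, of Vkorc1l1, the CCAAT box and 2 GC boxes are outside the tile. Dnpep held 5 GC boxes, Vkorc1l1 6, Angptl2 2, Sh2d1b1 and Zc3h12c 1 each, and Itgb8, Cebpa and Plek 0. Sh2d1b1 held 2 AP-1 matches, and Cebpa a TATA box 30 bases before the start.

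Most gene-end tiles were gene-start tiles. Around the 16457 genes whose strand is given, the tile holding the gene start had on average 1617 fragments and was in the top 50000 for 45.5% of genes, while the tile holding the far end had 65.7 fragments and was in the top for 2.33%. Of the members, 19092 lay near a gene start, 769 near a far end only, and 4367 near genes without a strand in the table. Their centers were a median of 351.5 bp from the nearest gene end. They covered 10548 of 20665 protein-coding genes (51.0%), with a median of 3 tiles and up to 9 per gene, and 4519 tiles were near more than 1 gene, so that their fragments cannot be assigned to a single gene. Of all 166726 tiles near a gene end with a fragment, 14.5% were members.

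**Figure D1:**
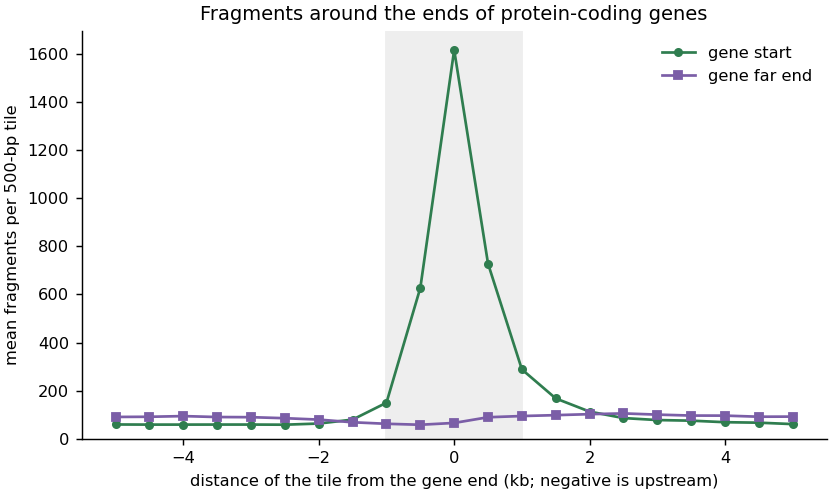
Mean fragments per 500-bp tile (y axis, both libraries summed) by distance from the gene start or far end in kb (x axis, negative is upstream) over 16457 genes; the gray band is the 1 kb used to choose tiles. The start tile averaged 1617 fragments and the far-end tile 65.7.

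By the ranking itself, 84 of the top 100 tiles and 862 of the top 1000 were members, against 3087 of the last 10000. Members held 488 to 18516 fragments (median 1516), and the other 25772 top tiles a median of 877. At the threshold, the last members were at Csnk1e and Nrtn (488 fragments each), and the first tiles near a gene end outside it were at Eloc and Mia3 (487 each). Of 75 tiles tied at 488 fragments, 74 were in the top, 21 of them members. Members made up 42.7% (chromosome 18) to 54.9% (chromosome 8) of the top tiles of a chromosome.

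Gene-end tiles took in a similar part of the fragments of every label. They held 41.9% of the labelled fragments in cecum and 40.1% in tumor, and the labels ranged from 39.0% (PD1+ CD8) to 44.0% (CD8aa) in cecum and from 39.1% (Th17) to 44.2% (CCR7+ CD4) in tumor. The share was higher in the cecum in 10 of the 16 labels and in the tumor in 6. Rorgt gdT fell by 3.92 percentage points, from 43.0% in the cecum to 39.1% in the tumor, and CCR7+ CD4 rose by 2.86 points, from 41.4% to 44.2%. The PD1+ CD4 label had 36.4% in the tumor. The widest counting interval of the 16 labels, for newly activated CD4 in the cecum, ran from 41.8% to 42.1%, so these gaps exceed counting error, but single cells spread far more: the middle 90% of cells ranged from 36.5% to 51.0% in cecum and from 34.1% to 49.8% in tumor.

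**Figure D2:**
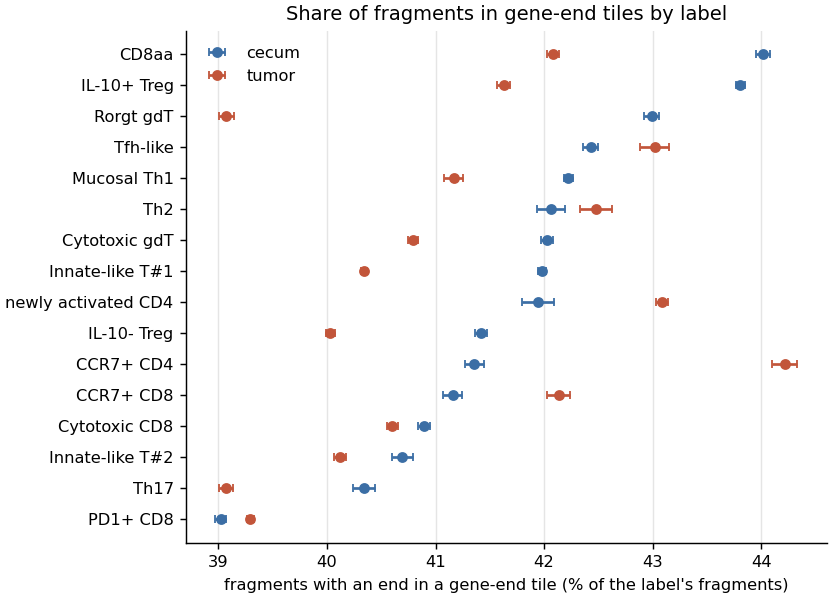
Percent of each label's fragments with an end in a gene-end tile (x axis) by label (y axis), cecum and tumor. All points of the 16 labels lie between 39.0% and 44.2%. PD1+ CD4, with 36.4% in the tumor, is not drawn.

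Fragment length differed between the libraries along with the share: fragments under 120 bp, the nucleosome-free class, were 44.5% of the fragments in member tiles in cecum and 47.1% in tumor, and 27.9% and 30.7% outside the top tiles. The part of fragment length in the difference of the shares was not tested.

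Gene-end tiles were open across more labels than the other top tiles. A label was counted as open at a tile when its FPM was at least 0.5 times the mean over the 16 labels, and breadth is the number of such labels. In the cecum 61.0% of members and in the tumor 63.9% were open in all 16 labels, against 23.9% and 27.3% of the other top tiles. In both libraries, 11926 members (49.2%) were open in every label, against 4039 (15.7%) of the other top tiles, and 31 members (0.128%) were open in 8 labels or fewer in both, against 500 (1.94%). The median member's highest label was 1.48 times the mean over labels in each library, against 1.86 and 1.81 in the other top tiles.

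Breadth was lower in tiles with fewer fragments, where a small label has few counts; the part of counting error in this was not tested. The top tiles were split by fragments into 4 equal groups. In the group with most fragments, 87.8% of members and 59.0% of the other tiles were open in every label in both libraries; in the next group the values were 45.4% and 21.6%, then 17.8% and 7.09%, and in the lowest 5.06% and 1.81%. The share depended on the setting. With the 8 labels of at least 200 cells alone, 85.5% of members and 48.3% of the other tiles were broad in both libraries, against 18.3% and 2.93% at 0.5 times the highest label, 19.4% and 3.73% with labels thinned to the smallest, and 37.7% and 10.1% without cells above 3 times the median fragments. The labels most often below the level in both libraries were CCR7+ CD4 (670 members and 4999 other top tiles) and Th2 (652 and 3248), both with few cells. Among members, the other labels ranged from 110 (Mucosal Th1) to 340 (CD8aa), with newly activated CD4, the shallowest in the cecum, at 155. Among the other top tiles they ranged from 823 (Cytotoxic CD8) to 2925 (Tfh-like, which had 308 members). Members near a far end only were less often broad (15.6%) than those near a start (51.5%).

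**Figure D3:**
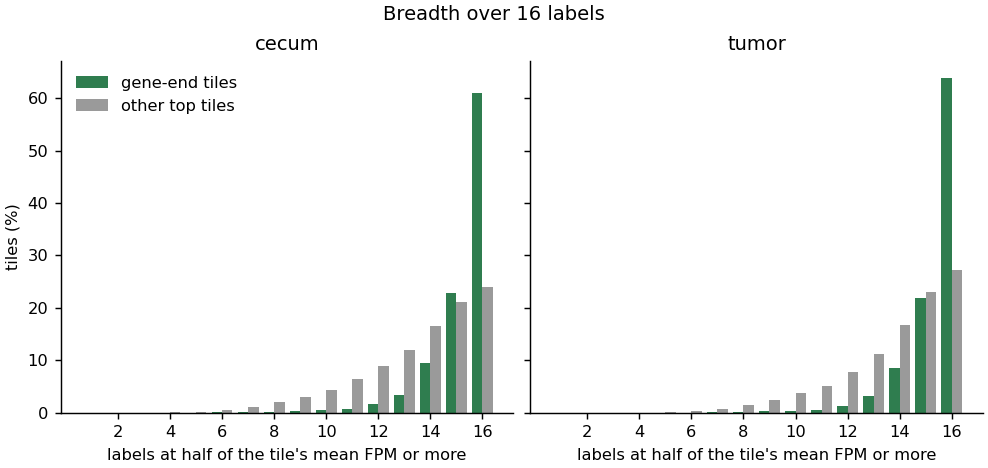
Percent of tiles (y axis) by the number of labels, of 16, open at them (x axis), for gene-end tiles and the other top tiles, in the cecum and the tumor. The bar at 16 labels holds 61.0% and 63.9% of gene-end tiles against 23.9% and 27.3% of the others.

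Gene ends here are the outermost ends of the annotated gene, so a start inside the gene was not counted. Of the other top tiles, 3050 (11.8%) lay within 1 kb of such an inside start in the RefSeq promoter table, and 42.0% of these were open in every label in both libraries, against 12.1% of the remaining 22722. The genes Gata3, Rora and Egr2 had no member at an outermost end.

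The 5 members with the most fragments were close to even over the labels. Dnpep, an aspartyl aminopeptidase, had 155 FPM in the lowest label (CCR7+ CD4), a median of 185 and 229 in the highest (newly activated CD4) in cecum and 161 (PD1+ CD8), 176 and 214 (Mucosal Th1) in tumor, at chr1:75317501-75318000. The tile shared by Hdgfl2 and Ubxn6 had 124, 175 and 207 FPM in cecum and 140, 162 and 199 in tumor, at chr17:56079001-56079500. Dazap2 had 135, 173 and 204 and then 139, 155 and 222, at chr15:100615001-100615500. All 16 labels were open in each of these tiles, and the label at the top changed between the libraries. Vkorc1l1, a paralog of the vitamin K epoxide reductase, had 122, 160 and 190 FPM in cecum and 130, 152 and 190 in tumor, at chr5:129941501-129942000. The tile of Brpf1, a bromodomain subunit of histone acetyltransferase complexes, and Cpne9 had 130, 154 and 191 and then 131, 149 and 206, at chr6:113306501-113307000.

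Only 5 gene-end tiles passed the strictest definition of a label-specific tile, at least 20 fragments and at least 2-fold the FPM of each other label, for the same label in both libraries. The background over the top tiles was 50 of 50000 (0.1%), and the other top tiles held 45. These 5 tiles belonged to 5 different labels. They were chosen for the lead of 1 label in both libraries, so that the leads below are descriptions. The calls depend on the settings: 3 tiles passed with at least 50 fragments, 3 with cells of at least 1000 fragments, and 0 at 3-fold or with labels thinned to the smallest.

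The Itgb8 tile, at the start of the gene for the integrin beta 8 subunit, which takes part in activating latent TGF-beta, was specific to IL-10- Treg. It had 22.0 FPM in these cells in the cecum, against a median of 2.19 over the labels and 11 in Tfh-like, the next label, and 22.2 FPM in the tumor, against a median of 3.29 and 10.9 in Tfh-like (chr12:119238001-119238500). The log2 ratio over Tfh-like was 1.01 [0.30, 1.76] in cecum and 1.03 [-0.13, 2.50] in tumor, so the lead in the tumor is not shown beyond counting error. PD1+ CD4, which was not among the labels compared, had 20.2 FPM in the tumor, close to IL-10- Treg.

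The Cebpa tile (chr7:35119001-35119500), at the start of a transcription factor gene known from myeloid cells, was specific to Tfh-like cells. These had 38.6 FPM in cecum and 39.9 in tumor, against 14.6 and 11 in IL-10- Treg, the next label, and medians of 5.41 and 6.78. The log2 lead was 1.41 [0.86, 1.98] and 1.86 [1.08, 2.58], on 22 fragments in the tumor. Zbtb16, which encodes PLZF, a transcription factor of innate-like T cells, had 24.5 FPM in Rorgt gdT in cecum and 22.0 in tumor, next to 10.8 and 9.98 in CD8aa (chr9:48836001-48836500).

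The Ehmt1 tile, near the far end of a histone methyltransferase gene, had 22.0 and 19.3 FPM in Innate-like T#1 with medians of 1.55 and 1.44 (chr2:24791001-24791500). The next label was newly activated CD4 in the cecum (9.53 FPM) and Innate-like T#2 in the tumor (4.72), and the log2 lead was 1.21 [-0.17, 3.10] and 2.04 [1.26, 2.93], so that the lead in the cecum is not shown beyond counting error. Of its 536 fragments, 413 came from Innate-like T#1 and 123 from all other cells, so it is a member through the label it is specific to. The Dgat2 tile, at a gene of triglyceride synthesis, had 31.0 and 25.4 FPM in PD1+ CD8, next to 12 and 12.6 in CCR7+ CD8, a log2 lead of 1.37 [0.59, 2.25] and 1.01 [0.15, 2.04] (chr7:99152501-99153000); 339 of its 655 fragments came from PD1+ CD8, so that it and Zbtb16 (429 fragments from other cells) would also miss the threshold of 488 without their label.

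The label of a tile that met the definition in 1 library was then read in the other. Members were ranked on the fragments of both libraries together, so the other library is not independent of the choice, and these counts are a description. Of the 42 members that met the definition in the cecum, the same label was the highest in the tumor library in 34, was above the mean of the others in 40 and was at least 2-fold above it in 32, with a median log2 of 1.48. Of the 18 that met it in the tumor, the same label was the highest in the cecum library in 10, above the mean of the others in 16 and at least 2-fold above it in 10. Over all members, the highest label was the same in both libraries in 14.4%, against 25.5% of the other top tiles. Calls also depended on depth: 99.5% of members had at least 20 fragments from Innate-like T#1 in both libraries, against 12.2% for Th2 and 12.6% for newly activated CD4, so few calls were possible for the latter.

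PD1+ CD4 could be read in the tumor alone, where 4 members met the strict definition for it, against a background of 0.05% of the top tiles. At least 2-fold the mean of the 16 labels were 105 members (0.433%), against a background of 2.77%, and at most 0.5 times that mean 350 (1.44%), against 4.73%.

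A wider definition, chosen after seeing these counts, took a label with at least 20 fragments and at least 2-fold the mean of the other labels in both libraries (enriched), or at most 0.5 times that mean where at least 20 fragments would be found at it (depleted). A label with few cells can meet the fold and miss the 20 fragments, as Tfh-like did at Angptl2. By it 607 members (2.51%) were enriched in at least 1 label, against 4802 (18.6%) of the other top tiles and a background of 10.8% of all top tiles. Depleted members numbered 782 (3.23%), against 5228 (20.3%) and a background of 12%. Both shares lay far under the background. The counts rest on depth: with every label thinned to the smallest, 35 members and 137 other top tiles were enriched, and 14 and 35 depleted. Tiles near a far end only were enriched more often (13.3%) than those near a start (1.80%), and other top tiles within 1 kb of an inside start stood at 3.34%, near the members, with the remaining other tiles at 20.7%.

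The enriched tiles of each label are given as members, with the other top tiles in parentheses. Innate-like T#1 had 193 (1287), CD8aa 161 (1300), Cytotoxic gdT 99 (1141), Rorgt gdT 88 (638), IL-10+ Treg 63 (741) and IL-10- Treg 59 (684). PD1+ CD8 had 43 (504), Innate-like T#2 42 (347), CCR7+ CD4 31 (131), Cytotoxic CD8 26 (405) and CCR7+ CD8 21 (141). Th17 had 13 (163), Tfh-like 9 (31), Mucosal Th1 3 (89), Th2 3 (28) and newly activated CD4 0 (1). The order thus differed in part, with CD8aa first among the other top tiles. The member counts follow in part from the rule, which ranks by fragments summed over cells: without the label's own fragments, 104 of the 193 tiles of Innate-like T#1, the label with most cells, would hold fewer than 488 fragments, as would 25 of 161 for CD8aa and 21 of 99 for Cytotoxic gdT. The same held for 20 of 59 tiles of IL-10- Treg, 15 of 63 of IL-10+ Treg and 13 of 43 of PD1+ CD8. It also held for 11 of 88 of Rorgt gdT, 8 of 26 of Cytotoxic CD8 and 1 of 13 of Th17, and for 0 tiles of each other label. Tiles were shared most often by CD8aa with Cytotoxic gdT (64 tiles) and with Innate-like T#1 (58). The 2 Treg labels shared 16, CCR7+ CD4 and CCR7+ CD8 shared 7, and Rorgt gdT and Th17 shared 5.

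The tiles named next are examples, chosen after their values were seen. Several are members only through a label they are given for, and would miss the threshold of 488 fragments without it. These are Sh2d1b1, Kit, Prr29, Jag1, Psma7 and Lsm14b, Areg, Hopx, Angptl2 and Eomes. Of the 553 fragments at Sh2d1b1, for instance, Innate-like T#1 gave 129 in the cecum and 267 in the tumor. Sh2d1b1, which encodes EAT-2, an adaptor of SLAM family receptors in NK cells, had 16.2 FPM in Innate-like T#1 in the cecum against a mean of 1.57 in the other labels, and 21.7 against 2.08 in the tumor; CD8aa was next with 11.8 and 11.7. Kit, the receptor for stem cell factor, had 25.9 against 4.32 FPM and 24.0 against 3.22 in the same label. For Innate-like T#2, the tile of Maff, a small MAF transcription factor, had 27.8 against 5.32 and 33.3 against 6.52. The next label was Innate-like T#2 at Kit and Innate-like T#1 at Maff.

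Rorgt gdT led at Prr29, with 50.3 against 4.68 FPM in cecum and 36.3 against 4.29 in tumor, and Th17 was the next label there (29.2 and 28.3). At Jag1, a Notch ligand, Rorgt gdT had 28.7 against 3.82 and 21.0 against 4.28. CD8aa and Cytotoxic gdT led together at the tile of Psma7 and Lsm14b, which is near a far end (24.0 and 24.3 FPM in the cecum, medians over labels 0.695), and at Siva1 (33.5 and 25.3). PD1+ CD4 had 20.7 FPM at Siva1 in the tumor, where CD8aa had 30.8 and Cytotoxic gdT 26.9.

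Examples from the Treg labels follow. Ccr8, a chemokine receptor, had 28.8 FPM in IL-10- Treg against a mean of 5.31 in cecum and 26.1 against 5.50 in tumor, with Th2 next (25 and 23.2). Areg, which encodes the growth factor amphiregulin, had 32.2 against 7.45 and 31.5 against 7.11, again with Th2 next (32.2 and 25.5), so that IL-10- Treg and Th2 were level in the cecum. Hopx, a homeodomain cofactor, was enriched in both Treg labels: IL-10+ Treg had 19.2 FPM and IL-10- Treg 18 in cecum and 15.6 and 14.9 in tumor, with medians of 2.60 and 2.39. Angptl2, a secreted angiopoietin-like protein, was enriched in IL-10+ Treg (25.6 against 4.87 and 30.2 against 5.77), with Tfh-like next (23.8 and 19.9). PD1+ CD4 had 24.1 FPM at Ccr8, 14.4 at Hopx and 7.11 at Areg in the tumor.

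CD8 labels had other leading tiles. The tile of Nkg7, a protein of cytotoxic granules, and Lim2 had 46.8 FPM in PD1+ CD8 against a mean of 9.91 in cecum and 41.1 against 11.4 in tumor. Plek, which encodes pleckstrin, had 24.5 against 5.88 and 19.7 against 6.26, and Eomes, a T-box factor of memory and exhausted CD8 T cells, 12.4 against 3.41 and 14.2 against 4.61. Cd8b1, the CD8 beta chain, was highest in CCR7+ CD8 (41.6 against 6.81 and 41.2 against 6.17) with PD1+ CD8 next (20.6 and 24.8). The tile of Atp1b1, a sodium pump subunit, was enriched in both CCR7+ labels, with 67.3 and 61.3 FPM in CCR7+ CD4 and 38.4 and 44.6 in CCR7+ CD8, while its median over labels was 5.43 and 5.22. Among CD4 labels, Cxcr5, the receptor that marks follicular helper T cells, had 35.8 FPM in Tfh-like against 11.1 in cecum and 59.8 against 12.1 in tumor, though CCR7+ CD8 reached 34.4 in the cecum.

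**Figure D4:**
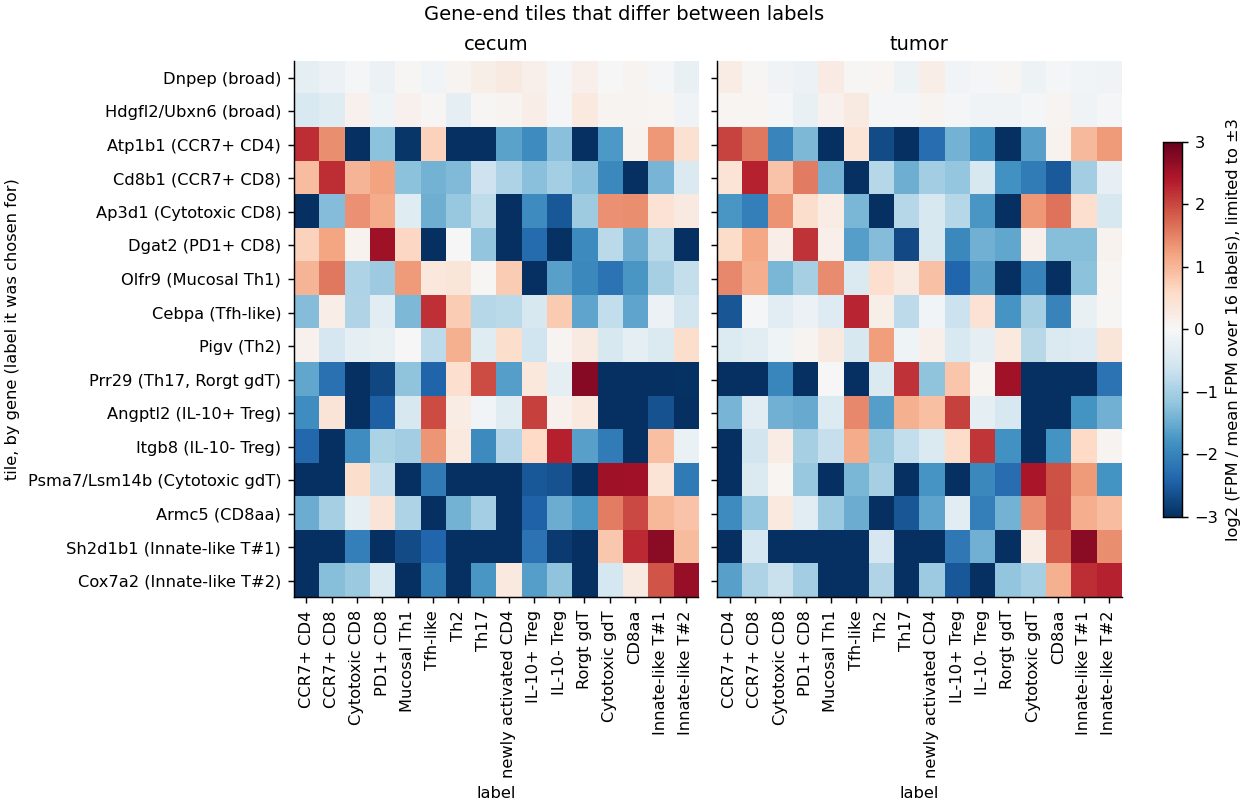
Log2 of FPM over the mean FPM of 16 labels (color, limited to ±3) for 16 gene-end tiles (rows, with the label each was chosen for) by label (columns), cecum and tumor. Dnpep and Hdgfl2/Ubxn6 are even, and the other rows are high in the named label in both libraries because they were chosen so.

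Depleted tiles were low in a label, and how many other labels were open at them varied: Lpar5 was open in 13 labels in the cecum and in 14 in the tumor, and Prr29, depleted in Cytotoxic gdT, in 5 and 6. Plxnc1, a semaphorin receptor, had 0 fragments in CD8aa in both libraries, which allows up to 1.41 FPM in cecum and 0.880 in tumor, against means of 10.2 and 12.2 in the other labels. Coro1c, an actin-binding coronin (tile near the far end), had 1.60 FPM in IL-10+ Treg against 22.8 in cecum and 1.12 against 24.8 in tumor. At Sdcbp2 both Innate-like labels were low: Innate-like T#1 had 0.756 FPM and Innate-like T#2 had 2.87 against 21.4 and 21.3 in cecum and 1.30 and 1.01 against 22.4 in tumor. Cxcr5 was low in Cytotoxic CD8, with 0.900 against 13.4 and 1.89 against 16. Lpar5, a receptor for lysophosphatidic acid, was low in CCR7+ CD4 (5.11 against 45.2 and 6.97 against 40.1). Dpep2 was low in CCR7+ CD8 (2.40 against 23.5 and 3.43 against 23.5), and CCR7+ CD4 was lower still (1.70 and 2.79).

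Gene lists differed in how broad their tiles were, each gene being read at its member tile with the most fragments. Of all 10548 genes with a member, 70.5% were open in every label in both libraries at that tile. All 12 cell cycle genes had a member open in every label, as did 11 of 12 housekeeping genes and 31 of 34 ribosomal protein genes. Proteasome genes stood at 10 of 14, and early response genes of the T cell receptor at 14 of 21 with members for 20. Among lineage transcription factors 16 of 19 had a member and 8 were open in every label, while of 20 effector genes 11 had a member and 0 were open in every label. The lists also differed in fragments: the median tile held 1135 for effector genes and 2628.5 for lineage factors, against 4230.5 for cell cycle and 4454 for ribosomal protein genes, and the part of this in their breadth was not tested.

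Effector genes varied most between labels: 7 of the 11 were enriched in at least 1 label and 6 depleted, against 312 and 423 of 10548 genes overall. Prf1, perforin, had 1.17 FPM in Th17, a median of 11.3 and 32.8 in CCR7+ CD8 in cecum and 1.74 (Th17), 13.0 and 29.6 (PD1+ CD8) in tumor. Ifng had 0 in CCR7+ CD4, a median of 7.15 and 24.3 in Cytotoxic CD8, and then 0 (CCR7+ CD4), 9.69 and 28.2 (PD1+ CD8). Both genes were depleted in both Treg labels. Xcl1, a chemokine that attracts cross-presenting dendritic cells, reached 36.8 FPM in Cytotoxic gdT in cecum and 35.1 in Innate-like T#1 in tumor. Il10 was highest in IL-10+ Treg (43.4 and 32.4 FPM), with medians of 12.7 and 14.7; the labels were named by the authors from RNA that includes this gene. No member lay near Il17a, Il17f, Il22, Il4, Il5, Il13, Il21, Ccl3 or Ccl4.

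Among lineage factors, Maf ranged from 2.83 FPM (CD8aa) to 54.4 (Tfh-like) in cecum and from 6.54 (Cytotoxic gdT) to 57.9 (Th2) in tumor, and was depleted in CD8aa, Cytotoxic CD8 and Cytotoxic gdT. By contrast, Id2 had 34.0, 52.4 and 76.2 FPM and Klf2 39.5, 56.9 and 69.9 (lowest, median and highest label in the cecum), each open in every label. The start tile of Tbx21, which encodes T-bet, was open in 15 labels in each library, at 3.41 (CCR7+ CD4), 11.2 and 15.1 (CD8aa) in the cecum. Of homing receptors, 10 of 16 had a member and 2 were open in every label; Ccr7 ranged from 5.18 (CD8aa) to 55.3 (CCR7+ CD8) in cecum and from 7.63 (CD8aa) to 68.3 (CCR7+ CD4) in tumor. Of 8 inhibitory receptor genes 7 had a member, among them Pdcd1 and Havcr2. Pdcd1 was highest in PD1+ CD8 (12.1 and 14.8) of the 16 labels compared, which leave out PD1+ CD4. The value of PD1+ CD4 at this tile is not given here, so which of these labels is higher in the tumor is not shown. The RNA from which the authors named the labels includes Pdcd1. Havcr2 was enriched in Th17 (23.4 and 22.2).

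Markers of other cells were read in the labelled cells. These cells all carry T cell labels that the authors made from RNA, so the values cannot check the purity of the sort. All 12 T cell markers had a member, and all tiles within 1 kb of their ends, members or not, summed to 42.2 to 62.4 FPM per gene over labels and libraries. Members lay near 1 of 6 B cell genes (Cd79a), 2 of 6 myeloid genes (Spi1, Cd68), 2 of 10 epithelial genes (Epcam, Cdh1) and 1 of 8 stromal genes (Col1a1), and the same sums over each whole list were 5.64 to 11.1, 5.79 to 15.1, 1.19 to 7.87 and 2.75 to 8.61 FPM per gene. Epcam was enriched in Innate-like T#1 (18.4 and 17.6 FPM, medians 6.95 and 6.76), which also had the highest epithelial sum in each library; its part in the tiles of that label was not tested. An open promoter does not measure expression.

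Sequence went along with breadth. Of 20085 RefSeq promoters of 16457 genes, 8827 had a window of 300 bases, placed as for the printed sequences, that overlapped a member tile. The start itself need not lie in the tile, and each window was read at the member tile with most of its bases. For 6120 this tile was open in every label in both libraries, for 176 it was label-enriched and for 261 label-depleted. The median ratio of observed to expected CpG was 0.84 in broad promoters, 0.62 in enriched and 0.67 in depleted ones, and 0.28 in those outside members, while median GC content was 63.0%, 61.7%, 63.0% and 51.3%. Broad promoters also held more of the motifs known from housekeeping promoters: the ETS motif CCGGAAGT was in 11.7% of them, 0.57% of enriched and 5.28% of all promoters, the YY1 motif ATGGCGGC in 7.03%, 0.57% and 3.08%, and the NRF1 motif GCGCATGC in 6.91%, 1.14% and 3.55%. The TATA box TATAAA was in 5.16% of broad, 9.66% of enriched and 12.7% of all promoters.

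The AP-1 and T-box motifs were more frequent in enriched than in broad promoters. The AP-1 motif TGANTCA was in 3.24% of broad, 8.52% of enriched and 7.06% of all promoters, and the T-box motif GGTGTGA in 2.91%, 8.52% and 3.67%. The promoters that overlapped a member tile were also split by the fragments of that tile into 4 groups of their own. These are not the 4 groups of top tiles used for breadth. The lowest of them held 153 of the 176 enriched promoters. In it the ETS motif was in 8.45% of 426 broad and 0.65% of the enriched promoters, AP-1 in 1.88% and 8.50%, and T-box in 3.76% and 9.15%. The median CpG ratio there was 0.72 in broad and 0.61 in enriched promoters. The TATA box was in 9.62% and 11.1%, and the order turned for the GC box (56.8% and 59.5%) and median GC content (58.8% and 61.3%). The remaining motifs were the CRE TGACGTCA (4.48%, 1.14% and 2.3% in broad, enriched and all), the CCAAT box CCAAT (42.3%, 29.0% and 38.1%), the GC box GGGCGG (73.5%, 61.4% and 47.0%), the RUNX motif TGTGGTT (3.07%, 5.11% and 4.77%) and the GATA motif AGATAA (4.56%, 7.39% and 9.57%). Matches were exact, on both strands, and motifs that overlap were each counted. They describe letters in the window and not binding.

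By label the numbers were small. T-box matches were in 4 of 14 enriched promoters of PD1+ CD8 (Nkg7, Samd3, Stard10, Trim30c), RUNX matches in 4 of 17 of Cytotoxic gdT (Gzma, Plac8, Trim30c, Xcl1), AP-1 matches in 5 of 16 of IL-10+ Treg (of the genes Ifi203, Sdcbp2, Tnfrsf8 and Ypel4) and GATA matches in 4 of 25 of Rorgt gdT (Acpp, Cox7a1, F2rl2, Fut7). These labels and motifs were picked after the shares were seen.

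Tumor and cecum differed little at gene ends. The tumor over cecum ratio was taken within labels (Mantel-Haenszel, 16 labels as strata) and called at 1.5-fold. By it 18 members were higher in the tumor, against a background of 0.47% of the top tiles (217 of the other tiles), and 3 were higher in the cecum, against a background of 0.054% (24 of the other tiles). The share of members called in the tumor direction was 0.0743%. The counts higher in tumor and cecum were 54 and 11 with labels pooled and 31 and 6 without cells above 3 times the median fragments, and 11 were higher in the tumor with at least 200 fragments in each library. Those higher in the cecum numbered 8 with the labels of at least 200 cells and 5 without the Treg labels. The median log2 over all members was -0.05 with an SD between tiles of 0.13, against a median counting error of 0.08 per tile, and the other top tiles had a median of -0.01 and an SD of 0.19. None of the 11926 members open in every label was called in either direction, and none of the 24228 passed 2-fold.

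Most of the 18 tiles held fewer fragments than the median member, with Bhlhe40 (1686), Gm46294 (1627) and Hsd11b2 (1521) above it. The tiles below were chosen for the size of this ratio, and by the rule for named tiles also for the same sign in at least 12 labels. Their ratios, intervals and sign counts are thus descriptions. The largest ratio was at Polr3b, a subunit of RNA polymerase III, near the far end (chr10:84727001-84727500), where the labels had 0, 1.82 and 10.3 FPM (lowest, median, highest) in cecum and 0, 4.16 and 13.5 in tumor, a log2 of 0.88 [0.54, 1.21] with the same sign in 12 labels. Zc3h12c, an RNase of the regnase family, had 0, 2.03 and 10.2 FPM and then 0, 4.10 and 18.6, a log2 of 0.87 [0.55, 1.19] in 13 labels (chr9:52168501-52169000). Pex16, needed to build peroxisomal membranes, had 0.958, 4.58 and 23.4 FPM and then 4.38, 10.2 and 32.9, a log2 of 0.87 [0.67, 1.06] in 15 labels (chr2:92380001-92380500). Taken 1 label at a time, the interval lay above 0 in 2 labels at Polr3b, 4 at Zc3h12c and 8 at Pex16, and below 0 in 0. The labels of the 2 tissues overlapped in all 3 tiles, and IL-10- Treg was the highest label of each in the tumor. PD1+ CD4, outside the strata, had 34.7 FPM at Polr3b, 16.5 at Zc3h12c and 33.7 at Pex16 in the tumor, and pooling all cells without strata gave log2 ratios of 1.42, 1.29 and 1.18. The fragments of PD1+ CD4 did count in the ranking. Without them Polr3b (627 fragments) and Zc3h12c (530) would miss the threshold of 488, so both are members through a label found mostly in the tumor.

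Washc1, a subunit of the WASH actin complex, followed at 0.79 [0.54, 1.04] in 15 labels, Gm46294 at 0.78 [0.61, 0.95] in 14 and Ahdc1 at 0.75 [0.52, 0.97] in 14. At Washc1 PD1+ CD4, outside the strata, had 36.9 FPM in the tumor, above the highest label compared, IL-10+ Treg (22.4). Clpx, the chaperone of a mitochondrial protease, was at 0.71 [0.44, 0.99] in 14 labels. Ikbke and Tank encode a kinase of antiviral and NF-kappaB signaling and its adaptor. The Ikbke tile rose from a median of 6.45 to 10.3 FPM, by log2 0.70 [0.48, 0.92], and the Tank tile from 5.74 to 9.41, by 0.68 [0.46, 0.89]. Serpina3g, a serine protease inhibitor, was at 0.65 [0.42, 0.88]. The other 8 tiles, outside the rule for named tiles, were at Dgkz and Mdk, Mt2, Hsd11b2, Bhlhe40, Iqank1, Slc15a3, Slc25a13 and Scnn1g, with log2 0.60 to 0.65.

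In the other direction, Ppp1r13l had a median of 6.41 FPM in cecum and 4.00 in tumor, a log2 of -0.74 [-1.0, -0.48] with the same sign in 11 labels. Atp2a3, a calcium pump of the endoplasmic reticulum, went from 5.08 to 4.08, by -0.62 [-0.89, -0.34] in 12 labels, and Gm12250 from 3.19 to 2.85, by -0.62 [-0.88, -0.35] in 11. Ppp1r13l and Gm12250 fall outside the rule for named tiles and were named after their values were seen.

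**Figure D5:**
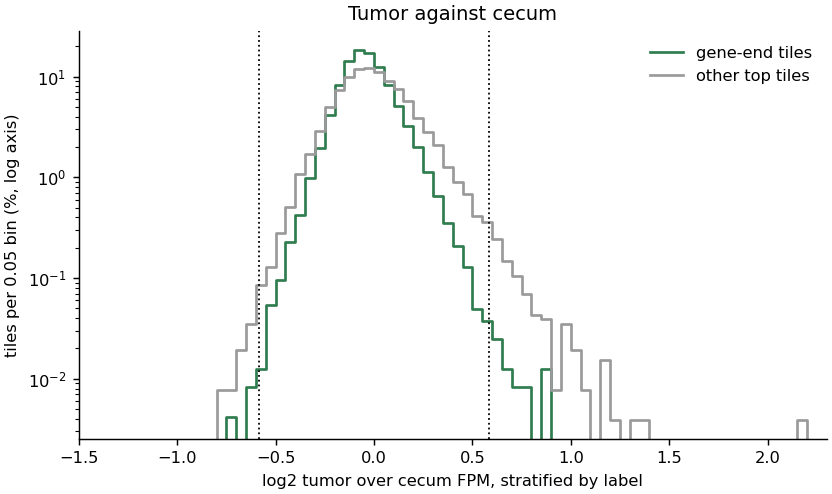
Percent of tiles (y axis, log scale, bins of 0.05) by the label-stratified log2 ratio of tumor over cecum FPM (x axis) for gene-end tiles and the other top tiles; dotted lines mark 1.5-fold. Gene-end tiles have an SD of 0.13 and 21 tiles beyond the lines, the other top tiles an SD of 0.19 and 241.

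Within single labels, 18 of 74538 pairs of a member tile and a label with at least 200 fragments differed by 2-fold or more (0.0241%), against 0.115% of 31290 pairs in the other top tiles. Of the 18, 12 were higher in the tumor, against a background of 0.0283% of pairs over the top tiles, and 6 in the cecum, against 0.0227%. Of the 12 higher in the tumor, 8 were in newly activated CD4, such as Gna12 with 38.1 FPM in cecum and 82.5 in tumor, but these rest on 11 to 17 fragments in the cecum. In PD1+ CD8, Gm46294 went from 8.75 to 24.7 FPM, Pycard, the inflammasome adaptor ASC, from 10.4 to 23.1 and Cela1 from 13.5 to 28.3. In Mucosal Th1 3 tiles were lower in the tumor, at Rheb, an activator of mTORC1 (52.6 and 22.8 FPM), Nr3c1, the glucocorticoid receptor (47.0 and 22.8), and Klhl42 (37.4 and 14.1), on 29, 29 and 18 fragments in the tumor. A different, adjacent tile of Nr3c1 was lower in IL-10- Treg (49.8 and 24.9).

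Among the gene lists, 0 genes passed 1.5-fold in either direction, against 9 of 10548 genes higher in the tumor over all genes with a member. Ccl5, a chemokine of effector T cells, was the closest, at log2 0.54 [0.33, 0.75] with the same sign in 14 labels; its median went from 4.28 to 7.86 FPM. The 8 hypoxia and glycolysis genes with a member had 7 above 0, at 0.04 [-0.0013, 0.081] as a list and 0.066 [0.025, 0.108] when scaled to the top tiles, while 14 of 16 lineage factors were below 0, at -0.09 [-0.13, -0.06], and 11 of 13 proteasome genes, at -0.10 [-0.13, -0.07]. Homing receptors stood at 0.12 [0.06, 0.17] as a list, with 8 of 10 genes above 0 against 3308 of 10548 over all genes with a member, among them Cxcr5 at 0.30 [0.11, 0.48] and Itga4, the alpha 4 integrin, at 0.26 [0.13, 0.40]. Labels differed at Cxcr5, where 10 of 16 had the same sign. The interval of a single label lay above 0 in 3 and below 0 in 2, and the ratios ran from -0.74 (CCR7+ CD8) to 2.53 (Th17). All 8 heat shock genes were below 0, as were 68.6% of all genes with a member, at -0.11 [-0.14, -0.08] as a list, with Hspa1b at -0.42 [-0.62, -0.21]; Hspa1a and Hspa1b are near-identical copies whose reads may be split, and Hspe1 and Hspd1 share a tile. Ribosomal protein genes stood at -0.08 [-0.10, -0.07] and early response genes at -0.08 [-0.09, -0.06], close to the median of all genes with a member, -0.05. The tiles of heat shock, proteasome and ribosomal protein genes held many fragments (medians of 5674.5, 4034 and 4454). Of the members in the group of top tiles with most fragments, 80.1% were below 0, with a median log2 of -0.066, so these lists lie closer to such tiles than to all genes. Of the 20 early response genes with a member, 13 were below 0 and 7 above, from Fosb at -0.24 [-0.34, -0.14] to Irf4 at 0.15 [-0.03, 0.33]. Per label, the median log2 ratio over members with at least 200 fragments in the label ran from -0.22 in Rorgt gdT (2681 tiles) to 0.36 in CCR7+ CD4 (145 tiles), the labels whose overall share in gene-end tiles also fell and rose most.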

How the data were processed

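Cecum and tumor ATAC libraries of 1 multiome each were used. The authors aligned reads to mm10 with Cell Ranger ARC 2.0.0, per the labels, filtered cells on mitochondrial share, genes, UMIs, fragments and TSS enrichment, clustered them on RNA and deposited fragment files and cell labels; doublet removal was not stated. The deposited fragment files hold counts of read pairs per fragment; each fragment was counted once per tile here, when its first or last base lay in it. Gene ends came from the RefSeq table of GRCm38.p6, and strand from its promoter table for 16457 of 20665 genes (4208 without). Cells were not replicates, so no test was run. Ratios between tissues were Mantel-Haenszel rate ratios over labels, in tiles with at least 50 fragments. Named tiles were the 5 with most fragments, those at the threshold, the label-specific tiles and the 10 highest and lowest called between tissues with the same sign in at least 12 labels, 1 per gene; list genes could be named, the enriched, depleted and single-label tiles were added after seeing the data. Members and lists were chosen with earlier results of these data known. The steps were tested on simulated data. Python 3.11.15, numpy 2.4.6, pandas 2.3.3 and scipy 1.17.1 were used. Alternatives were other tile numbers, distances, cells, labels, folds, depths and scalings.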

Additional observations from a re-analysis of the deposited data

Results flagged for a closer look

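In 4 of the 5 tiles with the most fragments, labels moved in opposite directions between the tissues; the difference between labels was not tested. At Dnpep, 1 label had an interval above 0 and 3 had one below, from -0.39 (Th17) to 0.44 (CCR7+ CD4) on the log2 scale of tumor over cecum. At Hdgfl2/Ubxn6, 2 labels were above and 5 below, from -0.43 (Rorgt gdT) to 0.48 (CCR7+ CD4). At Dazap2, 2 were above and 8 below, from -0.36 (Th17) to 0.71 (CCR7+ CD4), and at Brpf1/Cpne9, 1 above and 2 below, from -0.34 (Th17) to 0.66 (CCR7+ CD4). CCR7+ CD4 had the highest log2 ratio in each of these 4 tiles, and by FPM it was the lowest label of each in the cecum. Over the 145 members with at least 200 fragments in this label, its median log2 ratio was 0.36.

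Barcodes without a label, which no comparison used, also had fragments in gene-end tiles: 33.3% of their fragments in cecum and 32.7% in tumor had an end in one, against 41.9% and 40.1% for labelled cells.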

How the results depend on the processing

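No paired analysis was possible because there was 1 library per tissue and no test. A reversal was looked for only in the named tiles past 1.5-fold between tissues, and none reversed. Of 96 alternative values for the named tiles, 83 moved by less than their intervals. Of those for the main results (shares, breadth, counts of members and gene lists), 34 moved and 34 stayed within their interval or, for counts, within 1.5-fold. Motif shares, single-label ratios and marker sums were not recomputed under these alternatives. Members open in every label in both libraries were 18.3% (other top tiles 2.93%) at 0.5 times the highest label, 19.4% (3.73%) with labels thinned to the smallest, 85.5% (48.3%) with labels of at least 200 cells and 37.7% (10.1%) without cells above 3 times the median fragments. Label-specific members numbered 27 at 1.5-fold, 0 at 3-fold, 108 at 3-fold over the mean of the others, 3 with at least 50 fragments, 0 when thinned and 3 with cells of at least 1000 fragments; thinning left 35 enriched and 14 depleted. Tiles higher in tumor and cecum numbered 54 and 11 with labels pooled, 0 and 0 at 2-fold, and 31 and 6 without cells above 3 times the median; those higher in the tumor numbered 11 with at least 200 fragments in each library, and those higher in the cecum 8 with labels of at least 200 cells and 5 without the Treg labels. The top 25000 tiles held 15428 members. The fragment share was 41.9% and 40.1% with cells of at least 1000 fragments (a small shift that exceeds the counting interval), 43.8% and 41.3% without cells above 3 times the median and 38.7% and 37.0% at 500 bp. Scaled to the top tiles, the list log2 ratios were -0.0587 for ribosomal proteins, -0.0494 for early response genes, 0.066 for hypoxia and glycolysis and 0.055 for effector genes; the intervals of the last 2 include 0 without this scaling and not with it, and that of cell cycle genes (-0.0041) the other way round. The cause of these shifts was not tested. Depth limits the small labels: most members held under 20 fragments in Th2 and newly activated CD4.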
